A study of Mus musculus with 8 samples.

Results

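The platelet-derived growth factor (PDGF) family was examined in the aortas of 4 *ApoE-/-* and 4 wild-type (WT) mice. Its members were chosen by gene symbol and comprise 4 ligand genes (*Pdgfa*, *Pdgfb*, *Pdgfc* and *Pdgfd*), 2 signalling receptors (*Pdgfra* and *Pdgfrb*) and the receptor-like gene *Pdgfrl*. All 7 were present among the 21859 genes of the count tables, and all 7 were among the 15077 genes that passed the low-count filter. The *ApoE-/-* mice carried a germline knockout of *Apoe*, the gene of a lipoprotein ligand for hepatic clearance, so the gene was disrupted in every cell and not in the vessel wall alone. Both groups were male mice on a normal (chow) diet, 40 weeks old, and the WT mice were C57BL/6. The libraries held total RNA of whole aorta, so that every value mixes endothelium, smooth muscle, adventitia and any attached tissue. The comparison asks which genes differ between atherosclerosis-prone and healthy aortas.

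PDGF ligands are secreted as disulphide-linked dimers that bind 2 receptor tyrosine kinases. PDGF-A and PDGF-C chains act mainly through the α receptor, and PDGF-B and PDGF-D chains through the β receptor, PDGF-B also binding the α receptor. In the vessel wall, endothelial cells are a source of PDGF-B, which recruits pericytes and smooth muscle cells carrying the β receptor, while the α receptor marks fibroblasts. PDGF-C and PDGF-D are secreted with an inhibitory CUB domain and become active only after proteolysis. The family is a classical mitogenic and migratory stimulus for smooth muscle cells in atherosclerotic lesions.

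*Pdgfb* was lower in every *ApoE-/-* aorta than in any WT aorta, and it was the only member whose groups did not overlap. The means of *Pdgfa*, *Pdgfc*, *Pdgfra* and *Pdgfrb* lay above those of WT mice. The groups of the first 3 of these overlapped through a single library, *ApoE-/-* replicate 1, and those of *Pdgfrb* overlapped with and without it. With all 8 libraries, edgeR's quasi-likelihood test called 0 of the 7 members at an adjusted p under 0.05, where it called 0.464% of all genes tested (0.371% higher and 0.0929% lower). limma-voom also called 0 of the 7. 1 member (*Pdgfb*, lower) had an unadjusted p under 0.05 in edgeR, beside 11.4% of all genes tested (4.17% lower and 7.19% higher). DESeq2 called 1 member, *Pdgfb*, against 4.29% of the genes it tested (1.45% lower and 2.84% higher). The groups of 1 of the 7 members did not overlap, against 8.71% of all genes tested.

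Between 18375898 and 23940156 read pairs were counted on genes per library. *Apoe* had 14.7 to 36.3 CPM (counts scaled to a common library size) in *ApoE-/-* mice and 536 to 857 CPM in WT aortas, so that each library had the *Apoe* level of its label. The smooth muscle genes that define the aortic media were abundant in both groups, with 1416 to 6120 CPM of *Acta2* in *ApoE-/-* mice and 3229 to 6334 CPM in WT aortas. *ApoE-/-* replicate 1 stood apart. Its log2 CPM correlated across genes with the other *ApoE-/-* libraries at 0.850 to 0.903, where the other 3 pairs of that group reached 0.951 to 0.971. With the WT libraries it correlated at 0.897 to 0.947, for 3 of the 4 more closely than with any library of its own genotype. It also held the lowest sum of 10 contractile smooth muscle markers of all 8 libraries, 5400 CPM, where the other libraries had 11996 to 22388 CPM, and the highest sum of 8 Schwann cell markers, 1493 CPM against 344 to 909 CPM. All 7 PDGF genes had their lowest *ApoE-/-* value in this library, and for 6 of them it was the lowest of all 8 libraries. Results for the family are therefore given with and without it. The genotypes also differed without overlap in library make-up. Of all read pairs, 32.3% to 35.6% were counted on genes in *ApoE-/-* libraries and 27.9% to 30.2% in WT libraries, and mitochondrial genes took 2.84% to 5.16% against 5.52% to 6.92% of the pairs on genes. The part of tissue composition and of library make-up in the PDGF values was not tested.

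**Figure D1:**
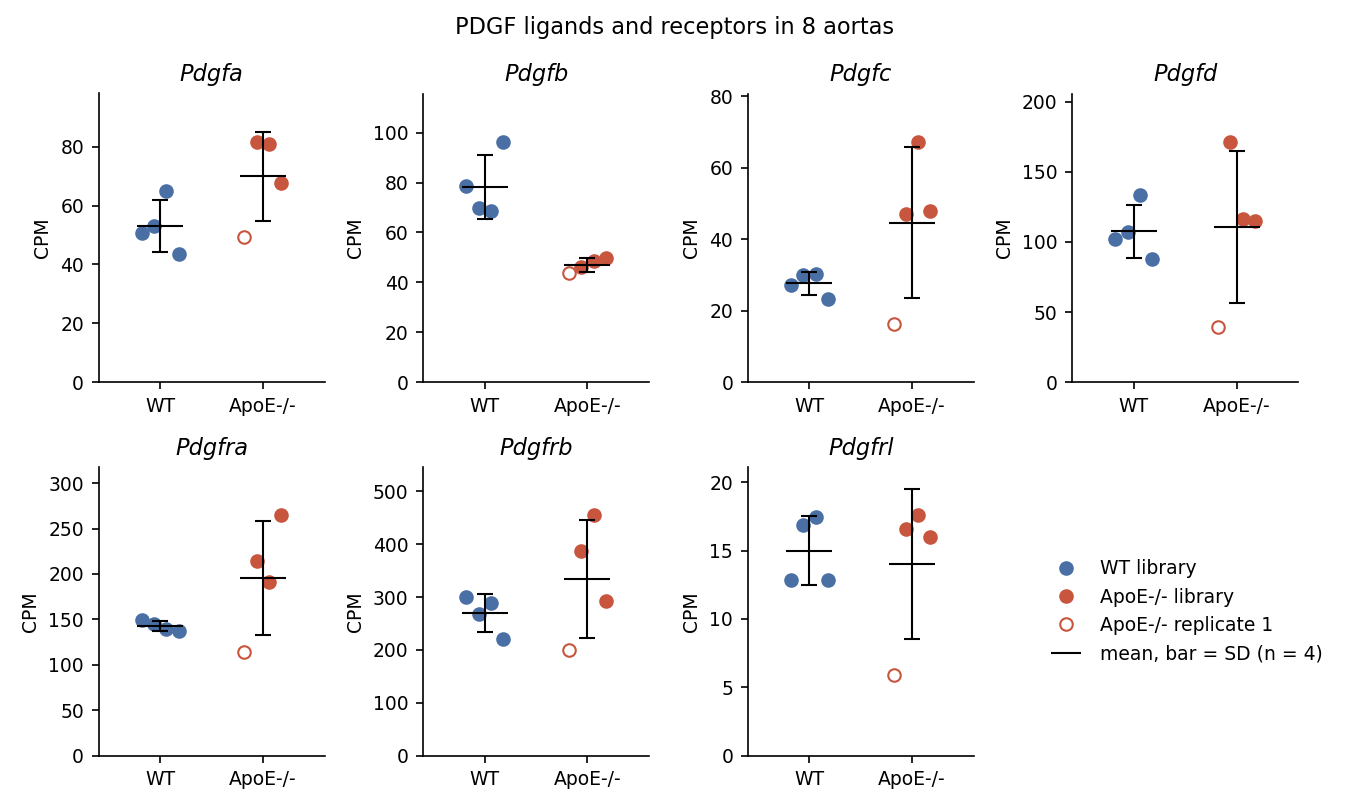
CPM (vertical axes, linear from 0) of the 7 PDGF genes in the 4 WT and 4 *ApoE-/-* libraries, with the mean and SD of each group. The 4 *ApoE-/-* values of *Pdgfb* (43.8 to 49.9 CPM) lie below all 4 WT values (68.5 to 96.4 CPM), while the open circle, *ApoE-/-* replicate 1, is the lowest *ApoE-/-* value in all 7 panels.

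In the WT aorta, levels were set side by side per kilobase of exon, counting the union of all annotated exons of each gene. The β receptor *Pdgfrb* was the most abundant member, at 49.2 ± 6.48 CPM per kb (SD, n = 4). *Pdgfd* followed at 34.1 ± 6.01 CPM per kb, and the ranges of these neighbours overlapped. *Pdgfb* had 18.8 ± 3.08, *Pdgfa* 17.0 ± 2.85 and *Pdgfra* 14.3 ± 0.557 CPM per kb. The ranges of *Pdgfb* and *Pdgfa* overlapped, as did those of *Pdgfa* and *Pdgfra*. *Pdgfc*, at 5.44 ± 0.633 CPM per kb, and *Pdgfrl*, at 4.80 ± 0.804 CPM per kb, were the least abundant and also overlapped each other. The WT order thus fell into 3 bands that did not overlap, *Pdgfrb* with *Pdgfd*, then *Pdgfb* with *Pdgfa* and *Pdgfra*, then *Pdgfc* with *Pdgfrl*. In *ApoE-/-* aortas, *Pdgfrb* (60.9 ± 20.4 CPM per kb) and *Pdgfd* (35.0 ± 17.2) again had the highest means. There the means of *Pdgfa* (22.4 ± 4.84) and *Pdgfra* (19.6 ± 6.26) came before that of *Pdgfb* (11.3 ± 0.664), and every neighbouring pair of the *ApoE-/-* order overlapped.

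The ligands are described first. *Pdgfb* (ENSMUSG00000000489.7; GRCm38 chromosome 15, 79995874 to 80014977, minus strand) encodes the B chain that endothelial cells release towards mural cells. It was counted 1078, 1053, 1119 and 1150 times in *ApoE-/-* replicates 1 to 4 and 1712, 1495, 1237 and 2014 times in WT replicates 1 to 4. In CPM, the *ApoE-/-* libraries had 43.8, 46.0, 48.7 and 49.9 and the WT libraries 78.6, 70.0, 68.5 and 96.4. The highest *ApoE-/-* value thus lay below the lowest WT value, and the *ApoE-/-* values were the more tightly grouped, at 47.1 ± 2.76 CPM (SD, n = 4) against 78.4 ± 12.8 CPM. The log2 fold change was -0.73 (SE 0.13, 95% interval -1.02 to -0.44), so that the level had decreased by 39.9% relative to WT mice. It missed the edgeR threshold with all 8 libraries (adjusted p = 0.0526) and passed it without *ApoE-/-* replicate 1 (log2 fold change -0.70, edgeR adjusted p = 0.0341). It also passed in DESeq2 with all 8 libraries (log2 fold change -0.74, adjusted p = 7.09e-05). Unlike the other members, *Pdgfb* hardly moved when that library was left out. In bulk tissue, fewer cells of a type and less RNA per cell cannot be told apart.

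Most endothelial markers also had values below 0. Of 12 such genes, 11 had a log2 fold change below 0, where 42.0% of all genes tested did, with a median of -0.38 against 0.05 over all genes. The groups of 6 of the 12 did not overlap, all lower in *ApoE-/-* mice, where 3.30% of all genes tested were lower without overlap. edgeR called 0 of the 12 with all 8 libraries (8 lower at an unadjusted p under 0.05, beside 4.17% of all genes tested), limma-voom called 0, and DESeq2 called 6, all lower, beside 1.45% of the genes it tested. Without *ApoE-/-* replicate 1, edgeR called 3 lower, namely *Kdr*, *Egfl7* and *Emcn*, beside 1.16% of all genes tested in that fit. The summed level of the list was 2079 to 2942 CPM in *ApoE-/-* aortas and 2927 to 3450 CPM in WT aortas, which overlapped through *ApoE-/-* replicate 4. *Pdgfb* and this list had r = 0.769 over the 8 libraries and r = 0.0566 after the mean of each genotype was taken away. Beside the 12 markers, the log2 fold change of *Pdgfb* lay between those of *Kdr* (-0.79, SE 0.19), the main VEGF receptor of endothelium, and *Egfl7* (-0.72, SE 0.15), a secreted endothelial factor. *Erg*, an endothelial transcription factor, was the only marker above 0 (log2 fold change 0.15, SE 0.24, edgeR adjusted p = 0.878). Divided by the summed endothelial markers of its own library, *Pdgfb* had log2 values of -5.88 to -5.57 in *ApoE-/-* mice and -5.62 to -5.01 in WT mice. These overlapped, with a mean difference of -0.31 (two-sided exact permutation test, p = 0.200, adjusted p = 0.350 over 7 such ratios, chosen after the values were seen). Relative to the list, then, a lower level of *Pdgfb* was not shown with 4 libraries a group.

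**Figure D2:**
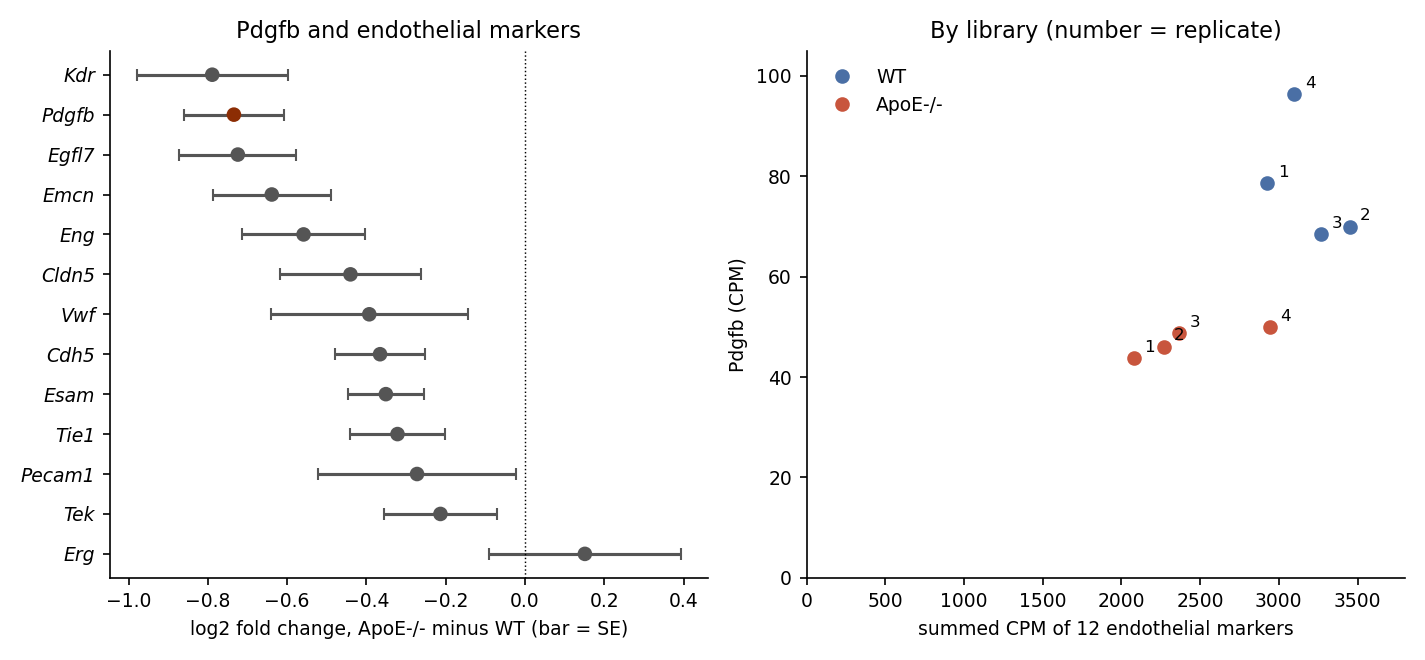
Left, log2 fold change (*ApoE-/-* minus WT, bars are SE) of *Pdgfb* and 12 endothelial markers. Right, *Pdgfb* CPM against the summed CPM of the 12 markers in each library, numbered by replicate. *Pdgfb* lies next to *Kdr* and *Egfl7* at the lower end of the list, and the *ApoE-/-* libraries have both less *Pdgfb* and, except replicate 4, less of the markers than every WT library.

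*Pdgfa* (ENSMUSG00000025856.15; chromosome 5, 138976014 to 138997370, minus strand) encodes the A chain, a ligand of the α receptor. Its *ApoE-/-* libraries had 49.5, 81.7, 80.9 and 67.8 CPM and its WT libraries 50.6, 53.2, 64.9 and 43.5 CPM. Replicates 2, 3 and 4 of the *ApoE-/-* mice thus exceeded every WT library, while replicate 1 fell among them. The log2 fold change was 0.40 (SE 0.19, 95% interval -0.03 to 0.83, edgeR adjusted p = 0.494). Once *ApoE-/-* replicate 1 was left out it was 0.54 (SE 0.15), which missed the edgeR threshold (adjusted p = 0.0889) and passed that of DESeq2 (adjusted p = 0.0273).

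*Pdgfc* (ENSMUSG00000028019.9; chromosome 3, 81036416 to 81214040, plus strand) encodes a latent α receptor ligand that tissue plasminogen activator can cleave. It had 16.4, 47.1, 67.3 and 47.9 CPM in *ApoE-/-* replicates 1 to 4 and 27.2, 29.9, 30.3 and 23.3 CPM in the WT replicates. The *ApoE-/-* libraries therefore lay on both sides of the WT range, replicate 1 below it and the other 3 above it. With all 8 libraries the log2 fold change was 0.69 (SE 0.36, 95% interval -0.15 to 1.53, edgeR adjusted p = 0.567). In the fit that left out *ApoE-/-* replicate 1, *Pdgfc* was higher by a log2 value of 0.97 (SE 0.16, edgeR adjusted p = 0.0185), or 1.96-fold, the largest difference among the members in that fit.

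*Pdgfd* (ENSMUSG00000032006.15; chromosome 9, 6168584 to 6378850, plus strand) encodes the other latent ligand, which acts on the β receptor. Its *ApoE-/-* values of 39.7, 171.5, 116 and 115 CPM surrounded the WT values of 102, 107, 133 and 87.7 CPM. The log2 fold change was 0.04 (SE 0.38, adjusted p = 0.983 by edgeR) and had a 95% interval from -0.83 to 0.91, so neither a fall nor a rise within these limits could be told from no change. Without *ApoE-/-* replicate 1 it was 0.32 (SE 0.19, edgeR adjusted p = 0.421), still with overlap.

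The make-up of the ligand transcripts was compared as the share of each gene in the summed ligand level per kb. In WT mice, *Pdgfd* made up 40.0% to 49.4% of that sum, *Pdgfb* 19.3% to 33.3%, *Pdgfa* 20.1% to 24.4% and *Pdgfc* 6.59% to 7.98%. In *ApoE-/-* mice, *Pdgfa* held 26.0% to 37.6%, above the share in every WT library. The highest of these shares was that of *ApoE-/-* replicate 1, whose *Pdgfa* level (49.5 CPM) lay within the WT range and whose summed ligand level was the lowest of all libraries, 42.2 CPM per kb against 69.5 to 100.9. *Pdgfb* held 24.9% in *ApoE-/-* replicate 1, within the WT range, and 10.97% to 15.1% in the other 3 *ApoE-/-* libraries, below it. The log2 ratio of *Pdgfb* to *Pdgfa* counts within a library was -0.18, -0.83, -0.73 and -0.44 in *ApoE-/-* replicates 1 to 4. In WT replicates 1 to 4 it was 0.63, 0.40, 0.08 and 1.15. *Pdgfb* thus had fewer counts than *Pdgfa* in every *ApoE-/-* library and more in every WT library. The mean difference in this log2 ratio was -1.11 (two-sided exact permutation test over 70 assignments, p = 0.0286, the smallest that 4 against 4 allow, adjusted p = 0.100 over 7 ratios). The log2 ratio of *Pdgfb* to *Pdgfrb* was also lower without overlap, by -0.97 (exact permutation test, p = 0.0286, adjusted p = 0.100). Since 7 ratios were tested, none could pass an adjusted threshold unless several reached that smallest p.

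**Figure D3:**
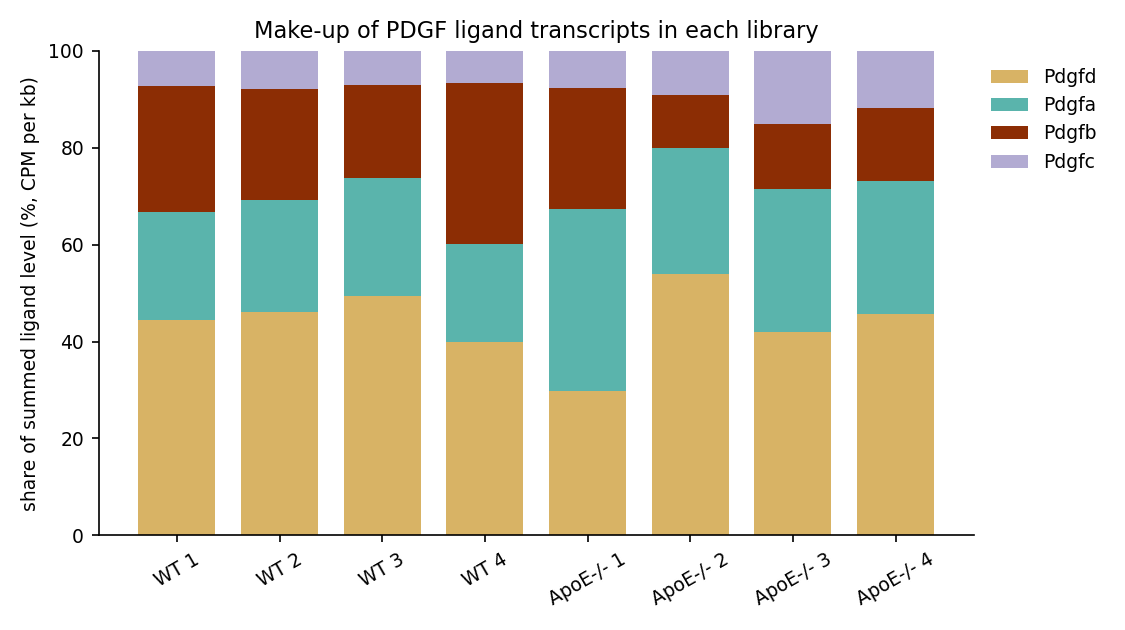
Share (%) of each ligand gene in the summed ligand level (CPM per kb of exon) of each of the 8 libraries, as stacked bars. *Pdgfd* takes the largest share in 7 of the bars, and the *Pdgfa* share is larger in each *ApoE-/-* bar (26.0% to 37.6%) than in any WT bar (20.1% to 24.4%).

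*Pdgfra* (ENSMUSG00000029231.15; chromosome 5, 75152292 to 75198215, plus strand) encodes the α receptor tyrosine kinase of fibroblasts and other mesenchymal cells. The 4 WT libraries were close together at 150, 145, 139 and 138 CPM, and the *ApoE-/-* libraries spread over 114, 214, 191 and 265 CPM. Replicate 1 of the *ApoE-/-* mice lay below the WT values and the other 3 above them. With all 8 libraries the log2 fold change was 0.46 (SE 0.23, 95% interval -0.07 to 0.98, edgeR adjusted p = 0.537). Among the other 7 libraries, *Pdgfra* was higher by a log2 value of 0.64 (SE 0.12, edgeR adjusted p = 0.0322).

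*Pdgfrb* (ENSMUSG00000024620.11; chromosome 18, 61045150 to 61085061, plus strand) encodes the β receptor of smooth muscle cells and pericytes. It had 199, 387, 455 and 292 CPM in *ApoE-/-* replicates 1 to 4 and 300.4, 268, 289 and 220.2 CPM in the WT replicates, so the groups overlapped both with and without *ApoE-/-* replicate 1. The log2 fold change was 0.31 (SE 0.25, 95% interval -0.27 to 0.89, edgeR adjusted p = 0.768), and without that library 0.49 (SE 0.18, edgeR adjusted p = 0.195). The value was 0.12 when *ApoE-/-* replicate 3 was left out instead, and leaving out any one library did not bring it past the threshold in edgeR. The log2 ratio of *Pdgfrb* to *Pdgfra* was 0.14 to 1.25 in *ApoE-/-* mice and 0.68 to 1.06 in WT mice, a mean difference of -0.14 (two-sided exact permutation test, p = 0.629). This difference changed sign with the library left out, at 0.06 without *ApoE-/-* replicate 4 and -0.30 without *ApoE-/-* replicate 3.

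*Pdgfrl* (ENSMUSG00000031595.9; chromosome 8, 40926212 to 40990785, plus strand) encodes a secreted protein similar to the extracellular part of the receptors, without a kinase. It had 5.89, 16.6, 17.6 and 16.0 CPM in *ApoE-/-* replicates 1 to 4 and 12.9, 16.9, 17.5 and 12.8 CPM in the WT replicates. Replicate 1 of the *ApoE-/-* mice lay below the WT range, 2 of the other libraries within it and 1 just above it. The log2 fold change was -0.10 (SE 0.32, 95% interval -0.84 to 0.65, edgeR adjusted p = 0.954), and it turned to 0.16 (SE 0.15, edgeR adjusted p = 0.648) without that library.

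Without *ApoE-/-* replicate 1, edgeR called 3 of the 7 members, *Pdgfb* lower and *Pdgfc* and *Pdgfra* higher, where it called 3.91% of all genes tested (2.75% higher and 1.16% lower). In that fit the groups of *Pdgfa*, *Pdgfc* and *Pdgfra* did not overlap on the higher side, beside 9.82% of all genes tested, and those of *Pdgfb* on the lower side, beside 7.44%. The library left out was the one through which the groups of those 3 genes overlapped, so their non-overlap was set by leaving it out, and it also favoured the higher calls. These counts are a description, and nothing is read from them against the shares of all genes. The median log2 fold change of the 7 members was 0.31 with all 8 libraries and 0.49 without this library, beside 0.05 and 0.00 over all genes tested.

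**Figure D4:**
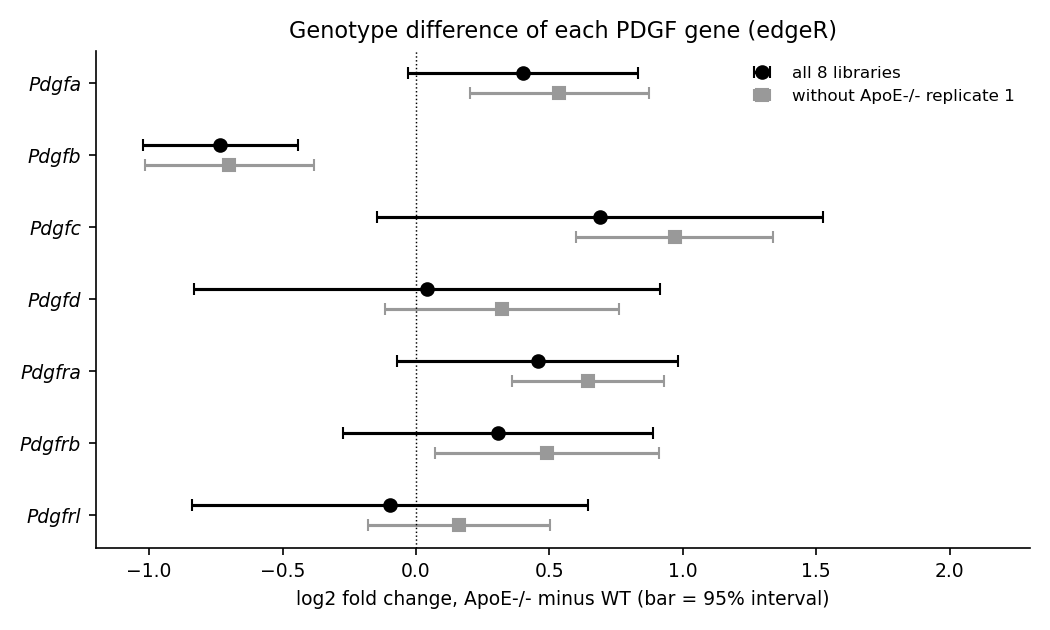
log2 fold change (*ApoE-/-* minus WT) of the 7 PDGF genes with 95% intervals, from all 8 libraries (black circles) and without *ApoE-/-* replicate 1 (grey squares). *Pdgfb* stays near -0.7 in both, while the other 6 genes move upwards and their intervals shrink.

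The promoter windows of *Pdgfra* and of *Pdgfa* and *Pdgfc*, the ligands that act mainly through its product, are shown as the sequence before the starts of a receptor and its ligands. They were chosen after their values were seen, and no comparison rests on them. RefSeq (GRCm38.p6) gave a window of 250 bases before and 50 after a transcription start for 4 of the 7 members. It lists 2 starts for *Pdgfa*, of which the one farther upstream is printed. Capitals mark matches to any of 4 motifs searched on both strands, the GC box GGGCGG, the TATA box TATAAA, the Egr1 motif GCGTGGGCG and the CArG box bound by Srf. A match is a run of letters and not a shown binding site.
*Pdgfa* (chr5:138994895-138995194, minus strand): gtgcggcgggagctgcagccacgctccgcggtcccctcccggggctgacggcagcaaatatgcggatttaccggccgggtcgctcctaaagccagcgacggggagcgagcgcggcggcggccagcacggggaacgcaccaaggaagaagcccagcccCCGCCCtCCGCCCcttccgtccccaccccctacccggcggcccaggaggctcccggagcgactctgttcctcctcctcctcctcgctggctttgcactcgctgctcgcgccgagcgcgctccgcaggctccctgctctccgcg
*Pdgfc* (chr3:81036166-81036465, plus strand): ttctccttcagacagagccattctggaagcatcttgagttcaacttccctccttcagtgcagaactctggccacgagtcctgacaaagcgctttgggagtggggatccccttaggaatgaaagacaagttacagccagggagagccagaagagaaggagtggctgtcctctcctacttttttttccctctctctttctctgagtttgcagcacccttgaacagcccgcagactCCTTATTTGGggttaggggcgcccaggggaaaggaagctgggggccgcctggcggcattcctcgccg
*Pdgfra* (chr5:75152001-75152300, plus strand): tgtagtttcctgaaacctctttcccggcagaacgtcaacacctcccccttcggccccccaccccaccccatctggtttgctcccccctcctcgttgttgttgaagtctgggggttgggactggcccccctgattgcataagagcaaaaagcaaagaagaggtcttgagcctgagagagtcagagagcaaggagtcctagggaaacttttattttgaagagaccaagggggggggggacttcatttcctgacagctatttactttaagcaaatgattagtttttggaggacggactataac
The *Pdgfa* window held 2 GC boxes on the opposite strand, starting 93 and 86 bases before the transcription start, and 73.3% of its bases were G or C, against a median of 52.7% over all 32851 windows. The *Pdgfc* window held 1 CArG box, 17 bases before the start, and the *Pdgfra* window held none of the 4 motifs. A GC box occurred in 35.7% of all windows, a CArG box in 1.63%, a TATA box in 13.6% and the Egr1 motif in 0.612%.

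The receptors and their ligands were then read beside the markers of the cells that carry them. Of the 12 fibroblast markers, the groups of 1 (*Lum*, a collagen-binding proteoglycan) did not overlap, on the higher side, where 5.41% of all genes tested were higher without overlap. edgeR called 0 of the 12 (2 higher at an unadjusted p under 0.05, beside 7.19% of all genes tested) and limma-voom called 0. DESeq2 called 1 higher, *Lum*, beside 2.84% of the genes it tested. *Lum* had 541 ± 285 CPM in *ApoE-/-* aortas and 107 ± 12.6 CPM (SD, n = 4) in WT aortas. The summed fibroblast markers were 3346, 6223, 8616 and 8621 CPM in *ApoE-/-* replicates 1 to 4 and 3961 to 4364 CPM in WT aortas, the same division as for *Pdgfra* and *Pdgfc*. Most of this sum was *Dcn*, *Col1a2* and *Col1a1*, with WT means of 1368, 1190 and 594 CPM. The median log2 fold change of the 12 markers was 0.27, beside 0.05 over all genes tested. Without *ApoE-/-* replicate 1, edgeR called 3 of them higher, *Lum*, *Col1a1* and *Col1a2*, beside 2.75% of all genes tested in that fit. Relative to the summed fibroblast markers of its own library, *Pdgfra* had a mean log2 difference of -0.17 (two-sided exact permutation test, p = 0.371) and *Pdgfc* of -0.04 (exact permutation test, p = 0.914). Both overlapped between genotypes.

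The summed contractile smooth muscle markers overlapped, at 5400 to 22282 CPM in *ApoE-/-* aortas and 11996 to 22388 CPM in WT aortas, and so did the 9 pericyte markers, at 2340 to 6395 CPM and 3900 to 5377 CPM. edgeR, limma-voom and DESeq2 each called 0 of either list, with 0 contractile and 1 pericyte marker (*Anpep*, an aminopeptidase, higher) at an unadjusted p under 0.05 in edgeR, beside 7.19% of all genes tested on the higher side. *Anpep* was called higher once *ApoE-/-* replicate 1 was left out (log2 fold change 0.92, edgeR adjusted p = 0.0083), beside 2.75% of all genes tested in that fit. Relative to the contractile list, *Pdgfrb* had a mean log2 difference of 0.54 (two-sided exact permutation test, p = 0.0857) and *Pdgfa* of 0.68 (exact permutation test, p = 0.0286). *Pdgfa* did not overlap, but neither passed after adjustment over the 7 ratios (adjusted p = 0.200 for each). With *ApoE-/-* replicate 1 left out these differences were 0.32, with overlap, and 0.39, without overlap (exact permutation test, p = 0.171 and 0.0571).

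**Figure D5:**
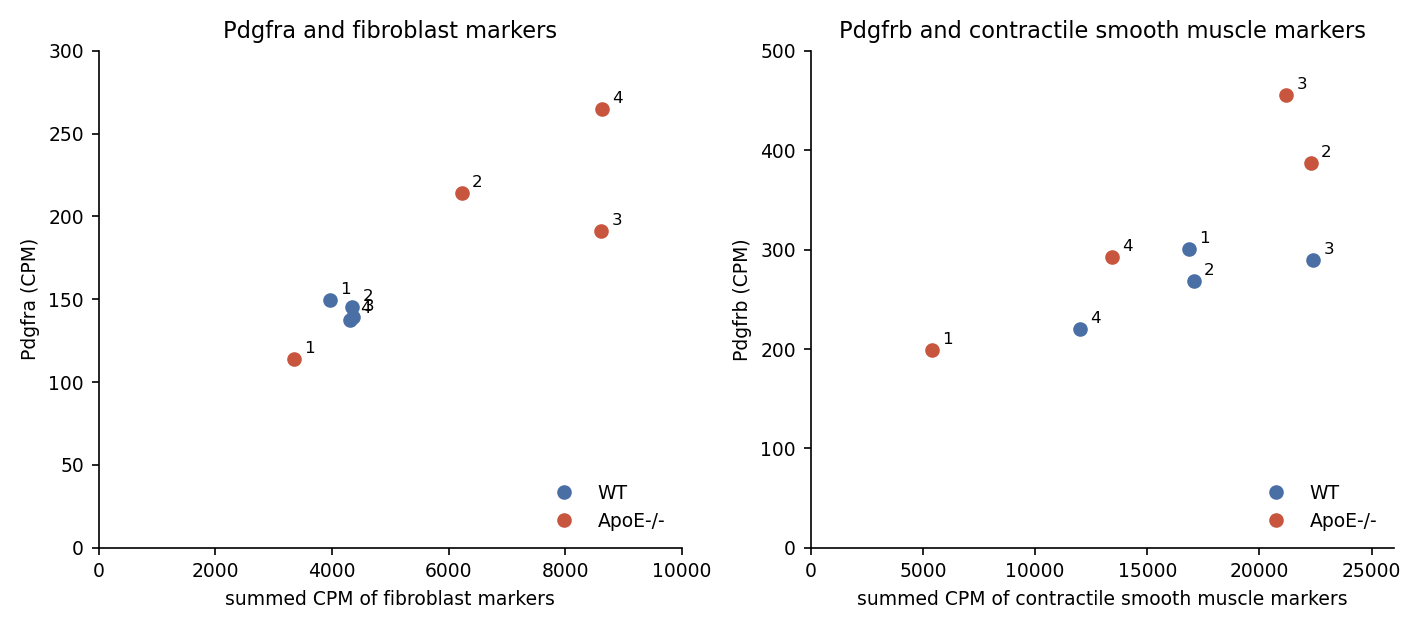
CPM of *Pdgfra* against the summed CPM of 12 fibroblast markers (left) and of *Pdgfrb* against 10 contractile smooth muscle markers (right) in each library, numbered by replicate. *ApoE-/-* replicate 1 is the lowest on both axes of both plots, and *ApoE-/-* replicates 2 to 4 lie above all WT libraries on both axes of the left plot.

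Macrophages and platelets also carry PDGF. All 10 macrophage markers had a log2 fold change above 0, with a median of 1.42, and the groups of 9 did not overlap, beside 5.41% of all genes tested on the higher side. edgeR called 1 of them, *Fcgr1*, an immunoglobulin receptor (log2 fold change 2.32, SE 0.28, adjusted p = 0.0355), beside 0.371% of all genes tested called higher. Without *ApoE-/-* replicate 3, WT replicate 2 or WT replicate 4, edgeR called 0 genes, so that call was lost. DESeq2 called 6 of the markers, beside 2.84% of the genes it tested. With *ApoE-/-* replicate 1 left out, edgeR called 6 higher, beside 2.75% of all genes tested in that fit. The summed macrophage markers were 435 CPM in *ApoE-/-* replicate 1, within the WT range of 373 to 443 CPM, and 877, 1008 and 1826 CPM in the other 3 *ApoE-/-* libraries. On the log2 scale, *Pdgfra* had r = 0.927 with this sum and r = 0.911 with the summed fibroblast markers. After the mean of each genotype was taken away, these were 0.945 and 0.874. Of 9 platelet and megakaryocyte markers, 3 (*Gp1bb*, *Gp6* and *Treml1*) were below the low-count filter, and edgeR, limma-voom and DESeq2 called 0 of the other 6, with 0 at an unadjusted p under 0.05. Most of that list's summed level, 83.8 to 213 CPM in *ApoE-/-* aortas and 101.1 to 149 CPM in WT aortas, was *Itgb3*, an integrin that other vessel cells express too. The 8 tested cardiac muscle markers had a median log2 fold change of -2.61 without a call in edgeR (7 lower at an unadjusted p under 0.05, beside 4.17% of all genes tested), and DESeq2 called 5 of them lower, beside 1.45%. The groups of 7 did not overlap, on the lower side, beside 3.3% of all genes tested. With *ApoE-/-* replicate 1 left out edgeR called 6 lower (median -3.38), beside 1.16% of all genes tested in that fit. edgeR, limma-voom and DESeq2 called 0 of the 8 Schwann cell and 0 of the 8 adipocyte markers, with 0 at an unadjusted p under 0.05 in edgeR. The adipocyte markers all had log2 fold changes below 0, with 2423 to 8937 CPM in *ApoE-/-* aortas and 5459 to 11057 CPM in WT aortas. The part of these cell types in the PDGF values was not tested.

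Of 7 proteases that process PDGF precursors, edgeR called 0 (1 higher at an unadjusted p under 0.05, beside 7.19% of all genes tested), as did limma-voom and DESeq2. The proprotein convertase *Furin* had 126 ± 20.02 CPM in *ApoE-/-* aortas and 122 ± 14.8 CPM (SD, n = 4) in WT aortas. *Plat*, tissue plasminogen activator, had 85.7 ± 22.9 CPM against 57.6 ± 3.87 CPM, which is 0.57 on the log2 scale (SE 0.20, adjusted p = 0.295 by edgeR). With *ApoE-/-* replicate 1 left out, *Plat* was higher by 0.75 (SE 0.09, edgeR adjusted p = 0.00806), the only protease called in that fit, which called 2.75% of all genes tested higher. *Pcsk6* and *Pcsk7*, other convertases, had log2 fold changes of -0.39 (SE 0.24) and -0.26 (SE 0.14), and the membrane protease *St14*, which can process PDGF-D, of 0.28 (SE 0.24) at 1.33 to 2.22 CPM in WT aortas.

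Among 16 PDGF-binding proteins, co-receptors and receptor brakes, edgeR and limma-voom called 0 with all 8 libraries (in edgeR 3 higher and 1 lower at an unadjusted p under 0.05, beside 7.19% and 4.17% of all genes tested), and DESeq2 called 3 higher and 1 lower, beside 2.84% and 1.45% of the genes it tested. *Socs3*, an inhibitor of cytokine signalling, had 28.6 ± 8.66 CPM in *ApoE-/-* aortas and 11.03 ± 2.45 CPM in WT aortas (log2 fold change 1.38, SE 0.26, edgeR adjusted p = 0.0635, DESeq2 adjusted p = 0.000157). *Ptpn1*, a phosphatase that dephosphorylates PDGF receptors, had 68.0 ± 14.2 CPM against 43.0 ± 2.10 CPM (log2 fold change 0.66, SE 0.15, edgeR adjusted p = 0.103, DESeq2 adjusted p = 0.0119). The scaffold gene *Slc9a3r2* was lower in DESeq2 (adjusted p = 0.00127), with 79.3 ± 12.7 CPM against 126 ± 12.9 CPM, but not in edgeR (log2 fold change -0.67, SE 0.14, adjusted p = 0.0819). *Thbs1*, a matrix protein, named after its value was seen, was the other gene DESeq2 called, with 637 ± 343 CPM against 239 ± 13.9 CPM. edgeR called *Socs3*, *Ptpn1* and *Thbs1* higher once *ApoE-/-* replicate 1 was left out, beside 2.75% of all genes tested in that fit. *Lrp1*, the lipoprotein receptor that regulates PDGF receptor β, had 2785 ± 813 CPM against 1956 ± 106 CPM, with overlap (edgeR adjusted p = 0.536).

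Of the 37 receptor signal transducers, edgeR, limma-voom and DESeq2 called 0, and in edgeR 5 were higher and 1 lower at an unadjusted p under 0.05, beside 7.19% and 4.17% of all genes tested. The smallest p among them belonged to *Stat3*, a transcription factor (log2 fold change 0.41, SE 0.14, edgeR adjusted p = 0.282), and *Grb2*, the adaptor that couples receptors to Ras (log2 fold change 0.39, SE 0.13, edgeR adjusted p = 0.288). Both were higher in every *ApoE-/-* library than in any WT library. *Yes1*, a Src family kinase, was the lower one, without overlap (log2 fold change -0.22, SE 0.10, edgeR adjusted p = 0.437). The median of the 37 log2 fold changes was 0.09.

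Of 20 early response genes of growth factor signalling, 19 were tested and edgeR called 1 higher, beside 0.371% of all genes tested. It was *Ccl2*, a monocyte chemokine first found as a PDGF-induced transcript (5.84 ± 1.45 CPM in *ApoE-/-* aortas, 1.31 ± 0.258 CPM in WT aortas, log2 fold change 2.15, SE 0.25, adjusted p = 0.0355). At an unadjusted p under 0.05 in edgeR, 2 of the list were higher and 1 lower, beside 7.19% and 4.17% of all genes tested. Left without any one library other than *ApoE-/-* replicate 1, edgeR called 0 of the list. DESeq2 called *Ccl2* and *Cxcl1*, another chemokine (7.75 ± 3.08 CPM against 2.42 ± 0.583 CPM, edgeR adjusted p = 0.0683), both higher, beside 2.84% of the genes it tested. Outside these chemokines, which also respond to other inflammatory stimuli, DESeq2 and edgeR called 0 of the list. *Egr1*, an immediate early transcription factor, had 126 ± 84.5 CPM against 119 ± 38.7 CPM and *Myc* 13.6 ± 2.42 CPM against 11.96 ± 1.74 CPM (edgeR adjusted p = 0.970 and 0.789). *Dusp6*, a phosphatase of ERK, differed by -0.46 on the log2 scale (SE 0.17, adjusted p = 0.335 by edgeR). The median of the list was 0.06.

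The most related signalling system, 15 genes of VEGF and of the other class III receptors, had 0 calls in edgeR and limma-voom with all 8 libraries (in edgeR 2 higher and 2 lower at an unadjusted p under 0.05, beside 7.19% and 4.17% of all genes tested), and DESeq2 called 2, both lower, beside 1.45% of the genes it tested. These were the VEGF receptors *Flt1* (165 ± 13.96 CPM against 242 ± 26.7 CPM, log2 fold change -0.55, SE 0.12, edgeR adjusted p = 0.0936) and *Kdr* (133 ± 35.4 CPM against 230 ± 28.1 CPM, edgeR adjusted p = 0.115). *Csf1r*, the macrophage colony-stimulating factor receptor and the gene next to *Pdgfrb* on the same strand 15536 bp away, had 109 ± 51.1 CPM against 60.1 ± 11.01 CPM without overlap (log2 fold change 0.86, SE 0.30, edgeR adjusted p = 0.295). *Kit*, the next gene after *Pdgfra* on the same strand, had a log2 fold change of -0.01 (SE 0.18).

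The genes whose log2 CPM was most like that of *Pdgfb* over the 8 libraries were *Ppp1r15b* (Pearson r = 0.974), *Rapgef3* (r = 0.961) and *Hspa12b* (r = 0.959), among 14207 genes with a mean of at least 1 CPM. These libraries share the genotype difference. After the mean of each genotype was taken away, the same genes had r = 0.878, 0.691 and 0.711. For the other members the 3 most alike genes had r = 0.981 to 0.994. They were *Wdr1*, *Tmem132a* and *Ssh3* for *Pdgfa*, *Axin1*, *Fstl1* and *Mxra8* for *Pdgfc*, *Mfap3*, *Cpb1* and *Csrp2* for *Pdgfd*, *Lrig1*, *Dnase1l1* and *Svbp* for *Pdgfra*, *Tbc1d2b*, *Tram2* and *Sntb2* for *Pdgfrb*, and *Aldh3a1*, *Pla2g4a* and *Ccdc68* for *Pdgfrl*. These likenesses include the low values of *ApoE-/-* replicate 1. Between members, r over the 8 libraries was highest for *Pdgfd* and *Pdgfrl* (0.935) and for *Pdgfc* and *Pdgfrb* (0.918). *Pdgfb* had r between -0.653 and 0.201 with the other 6, and between -0.953 and -0.716 over the 7 libraries without *ApoE-/-* replicate 1. After the mean of each genotype was taken away, over all 8 libraries, r was between -0.305 and 0.268.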

How the data were processed

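Whole aortas of 4 *ApoE-/-* and 4 WT mice were sequenced by the authors from ribodepleted total RNA with a stranded kit and paired-end reads. The study's methods count 4 animals a group, so the libraries were taken as separate mice. The deposited files hold raw counts of read pairs per gene for each library. The submitters' processing notes name TopHat2, HTSeq, GRCm38 and mm10; versions and annotation are not given in the sources used here. Pairs assigned to no feature made up 50.1% to 54.7% of all pairs in *ApoE-/-* and 56.4% to 58.0% in WT files, and they, ambiguous pairs and pairs aligned more than once were left out of library sizes and tests. Coordinates and exon lengths came from GENCODE M21 (GRCm38), which held 21817 of the 21859 gene identifiers and all 7 PDGF genes. Exons of *Pdgfa*, *Pdgfc* and *Pdgfra* overlap antisense RNAs that were not used here, and the deposited tables are marked as stranded counts of uniquely placed reads.

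Counts were analysed in R 4.3.3 with edgeR 4.0.16 (filterByExpr, TMM, robust quasi-likelihood F test, genotype as only factor) over all 15077 genes kept, with Benjamini-Hochberg adjustment and a threshold of 0.05. SE is the absolute log2 fold change over the square root of F. CPM are TMM-scaled. Log2 ratios used a prior count of 2, ratios to marker lists none, and exact permutation tests 70 assignments (smallest p = 0.0286). DESeq2 1.42.0 (the tool of the study), limma-voom (limma 3.58.1), 2 other scalings, 2 other filters, a fit blocked by replicate number, one without robust estimation and fits with libraries left out were alternatives. The edgeR fit was tested on simulated data. All members were named, with Apoe, the genes of each list past the threshold, its 2 smallest p in each direction and the 3 genes most alike to each member, and a few other list genes chosen after their values were seen. The members, lists and the library doubted were chosen with earlier results of these data known. Sequences came from RefSeq.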

Additional observations from a re-analysis of the deposited data

Results flagged for a closer look

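2 of 28 groups of 4 libraries held a value whose gap to its nearest neighbour was large for the range of the group (Dixon's test at 95%), where chance gives about 1 in 20 groups, or 1.4. For *Pdgfrl* in *ApoE-/-* mice, replicate 1 (5.89 CPM) lay far below the others, with a ratio of gap to range of 0.865. For the log2 ratio of *Pdgfb* to *Pdgfrb* in WT mice, replicate 4 (-1.19) lay above the others, with a ratio of 0.838.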

How the results depend on the processing

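*Pdgfb* stayed below 0 under all 17 other settings in edgeR, limma-voom and DESeq2 and all 8 DESeq2 fits without 1 library, and its threshold call depended on the tool. DESeq2 called it (log2 fold change -0.74, adjusted p = 7.09e-05). With 1 library left out its log2 fold change was -0.79 to -0.62 in edgeR (adjusted p = 0.0341 to 0.172) and -0.80 to -0.63 in DESeq2 (adjusted p = 8.27e-05 to 0.0031). With 1 library left out, *Pdgfc* was 0.42 to 0.97 and *Pdgfra* 0.28 to 0.64 in edgeR (*Pdgfra* 0.27 to 0.64 in DESeq2), and *ApoE-/-* replicate 1 was the only single library whose omission brought either past the threshold, in edgeR or in DESeq2 (0.96 and 0.64 in DESeq2). Without *ApoE-/-* replicates 1 and 3 they were 0.78 and 0.75 (edgeR adjusted p = 0.0257 and 0.0258). *Pdgfa* was 0.31 to 0.54 over both tools with 1 library left out, and passed only in DESeq2 without *ApoE-/-* replicate 1 (0.53). *Pdgfd*, *Pdgfrb* and *Pdgfrl* passed under none of these, and *Pdgfd* and *Pdgfrl* changed sign under some of them, not past the threshold in any. The cause of these differences was not tested.

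The number of members called was 0 in the main analysis, 1 in DESeq2, 2 without *ApoE-/-* replicates 1 and 3, and 0 to 3 in edgeR and 1 to 4 in DESeq2 with 1 library left out. Over all genes, edgeR called 70, limma-voom 29, DESeq2 721 and edgeR 822 without *ApoE-/-* replicates 1 and 3. With 1 library left out, edgeR called 0 to 593 and DESeq2 431 to 1548, the highest in both without *ApoE-/-* replicate 1. Among the pathway lists, DESeq2 called 4 binding proteins and brakes, 2 early response genes and 2 VEGF system genes. Without *ApoE-/-* replicates 1 and 3, edgeR called 1 protease, 3 binding proteins and brakes, 1 early response gene and 1 VEGF system gene. With 1 library left out it called 0 to 1 protease, 0 to 3 binding proteins and brakes, 0 to 2 early response genes and 0 to 2 VEGF system genes.

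Same-numbered libraries did not pair (correlations of their deviations 0.06, -0.45, 0.32 and 0.16, and 1 of 8 libraries correlated best with its own number). With the replicate number as a block, 2 genes in place of 70 and 0 members were called (*Pdgfb* -0.72, edgeR adjusted p = 0.140). With 4 libraries a group, *Pdgfrl* (145 to 404 counts) was the least deeply counted member.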
